A study of Rattus norvegicus with 27 samples.

Results

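A small set of CpG-rich 500 bp stretches of the autosomes was examined in the renal outer medulla of Dahl salt-sensitive (SS) rats. Their DNA methylation level was intermediate in each of the 12 rats used to choose them. They were chosen by their level alone. In the second of the study's 2 methylation tables, CpG sites with at least 10 reads in each of the 12 libraries were grouped into fixed 500 bp bins, and each library's level was the percentage of its reads in the bin that were methylated. A bin was taken when it held 10 or more such sites and all 12 libraries lay between 35 and 65%. These were 669 of the 28573 autosomal bins with 10 or more common sites (2.34%), with 8937 CpG sites in all. Because the rule set these levels, they are given below as a description, without tests. The bins had been proposed as imprint-like. Of the 20 promoters of imprinted genes that could be placed in the table, 0 lay in or within 5000 bp of a member. Placed promoters were rarely near a member whatever the gene. Of 7931 on their own chromosome, 14 overlapped a member, and those of 42 genes lay within 5000 bp of one. The 0 therefore cannot decide whether the name holds, which was not tested. The bins are called here by their rule, the intermediate bins.

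Methylation was measured by reduced representation bisulfite sequencing (RRBS), in which the enzyme MspI cuts genomic DNA at CCGG and the short, CpG-rich fragments are treated with bisulfite, which converts unmethylated cytosines, and sequenced. The 27 libraries came from individual SS rats in 7 groups. In the first table, MCW_LS (n = 3) were rats of the MCW colony on purified AIN-76A diet with 0.4% NaCl until 8 weeks of age, and MCW_HS (n = 4) were MCW rats moved at 6 weeks to the same base diet with 4% NaCl, which they ate for 14 days. CRL_LS (n = 4) were rats of the CRL colony kept until 8 weeks on the non-purified 5L2F diet with 0.75% NaCl, and CRL_HS (n = 4) were CRL rats moved at 6 weeks to 14 days of AIN-76A with 4% NaCl. The change of salt in CRL rats was therefore also a change of base diet, and these cannot be told apart. In the second table all rats were from the MCW colony. PRE_LS (n = 4) were surgically prepared rats on 0.4% salt, sampled just before treatment. HS_SCR (n = 4) received a scrambled GapmeR, an antisense oligonucleotide that directs cleavage of matching RNA, into the kidney at 4 mg/kg and 4% NaCl for 7 days. HS_DT (n = 4) received GapmeRs against Dnmt3a and Tet3 at 2 mg/kg each with 4% NaCl for a period labelled 7 without a unit. HS_SCR and PRE_LS thus differ in salt, oligonucleotide and time together. Dnmt3a encodes an enzyme that adds methyl groups to cytosine and Tet3 an enzyme that oxidises them on the way to removal. These files hold methylation only, so neither the knock-down nor tissue markers could be checked. The outer medulla holds several cell types, and methylation on 1 of the 2 alleles of each cell and methylation in only some of the cells cannot be told apart in bulk DNA.

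Intermediate methylation has a well-known source at imprinted genes. There, a differentially methylated region keeps methyl groups on the copy from a single parent, so that a bulk tissue reads near the middle of the scale at neighbouring CpGs in all individuals. The pattern is set in the germ line and kept in most adult tissues. Other known sources are differences between cell types, differences between alleles of unlike sequence, and reads from several near-identical copies of a repeat that are counted at a single place.

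The sequences that bear on the result are shown first. Peg10, an imprinted gene derived from a retrotransposon, supplies the comparison with a known imprinted region. Its promoter bin missed the rule. Crygn (a gamma crystallin, the lens protein family), Slc6a16 (an orphan member of the solute carrier 6 transporter family) and Dnah10 (an axonemal dynein heavy chain) are genes whose annotated start lies in a member. Each sequence is the 250 bases before the annotated start, 5′ to 3′ on the gene's strand, from RefSeq on GRCr8. Capitals mark each CG, and each CCGG in full, the MspI recognition site. Peg10 is at chr4:33808776-33809025 (plus strand), Crygn at chr4:11286225-11286474 (plus strand), Slc6a16 at chr1:104862349-104862598 (plus strand) and Dnah10 at chr12:37569108-37569357 (minus strand) in GRCr8. All other positions in the text are in rn5, the build of the deposited tables.
Peg10: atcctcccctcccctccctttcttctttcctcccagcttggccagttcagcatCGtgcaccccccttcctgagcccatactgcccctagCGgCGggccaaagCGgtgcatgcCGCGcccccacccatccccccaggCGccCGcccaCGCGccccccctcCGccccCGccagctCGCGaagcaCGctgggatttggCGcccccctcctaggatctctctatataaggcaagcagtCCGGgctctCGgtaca
Crygn: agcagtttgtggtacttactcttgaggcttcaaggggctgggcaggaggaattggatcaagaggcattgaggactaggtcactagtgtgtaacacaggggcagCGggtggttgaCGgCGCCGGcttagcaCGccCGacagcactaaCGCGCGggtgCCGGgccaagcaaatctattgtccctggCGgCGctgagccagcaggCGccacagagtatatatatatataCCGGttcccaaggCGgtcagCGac
Slc6a16: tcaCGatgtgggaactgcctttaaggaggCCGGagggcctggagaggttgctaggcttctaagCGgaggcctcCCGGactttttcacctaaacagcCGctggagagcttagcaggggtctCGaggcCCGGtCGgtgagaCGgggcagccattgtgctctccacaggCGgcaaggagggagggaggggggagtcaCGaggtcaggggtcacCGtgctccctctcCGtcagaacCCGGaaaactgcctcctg
Dnah10: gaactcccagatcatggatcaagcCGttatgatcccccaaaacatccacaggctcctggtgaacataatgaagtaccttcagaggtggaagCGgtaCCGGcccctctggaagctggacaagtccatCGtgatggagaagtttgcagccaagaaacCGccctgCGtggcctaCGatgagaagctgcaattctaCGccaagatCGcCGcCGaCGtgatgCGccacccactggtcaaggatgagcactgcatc
The Peg10 stretch holds 18 CGs and 1 CCGG. Crygn has 16 CGs and 3 CCGGs, Slc6a16 14 and 4, and Dnah10 13 and 1.

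The mean level of a member over its 12 rats had a median of 52.6% (interquartile range 47.9 to 57.0%), and 428 of the 669 had a mean above the middle of the scale. Members held 10 to 61 common sites with a median of 12, and 169 held exactly 10. Within a member, the difference between the highest and the lowest rat was 10.9 percentage points in the median, from 1.51 to 29.4. The SD between rats had a median of 3.33 points, against 4.24 in the 681 other bins with 10 or more sites and a mean of 35 to 65%. That smaller spread is built in by a rule that asks every rat to stay within fixed bounds. In 640 of the 669 members the rats varied by more than independent counting of every CpG call gives (quasi-binomial dispersion above 1, median 5.52). Because 1 read can cover several CpGs, its calls are not independent, and the dispersion does not measure variation between rats alone. The bounds cut through a continuous scale. The 3 members nearest the upper bound had a highest rat at 64.99% (chr4:186910501-186911000), 64.98% (chr1:195204501-195205000) and 64.95% (chr1:43490501-43491000). The 3 bins just outside it, chr4:60559001-60559500, chr14:9837501-9838000 and chr6:145705501-145706000, had a highest rat at 65.01, 65.01 and 65.02%. A further 237 bins with 9 sites met the same level rule. Members lay on all autosomes, from 1.37% of the eligible bins on chromosome 18 (11 of 805) to 4.09% on chromosome 12 (47 of 1150). Their levels were alike from rat to rat, as the boxes of members by rat show.

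**Figure D1:**
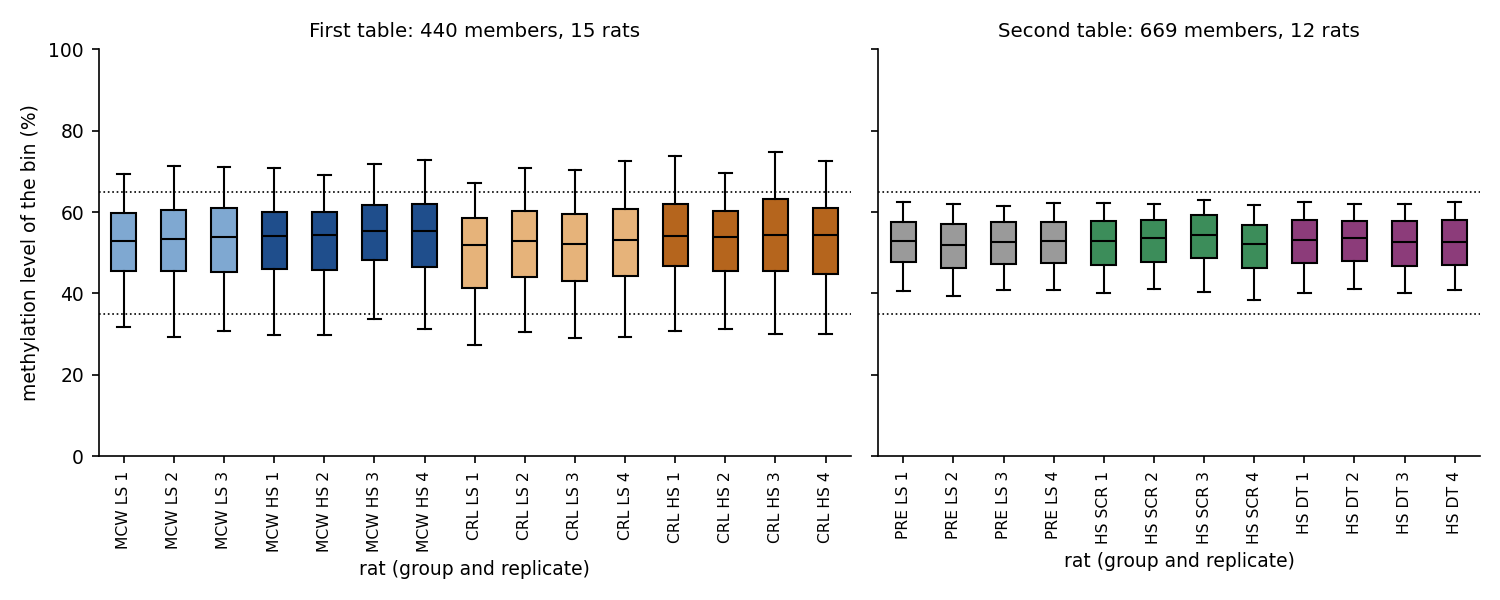
Methylation level (%, vertical axis) of the intermediate bins in each rat, for the first table (440 members with 3 or more common sites there) and the second table (669 members). Boxes show the quartiles and median over bins, whiskers the 5th and 95th percentiles, and dotted lines the bounds of 35 and 65% that chose the members in the second table; all 27 rats have their medians in the low to mid fifties, and in the first table, which the rule did not use, the whiskers pass both bounds.

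Single CpGs inside the members were far less uniform than the bins. Of the 8937 sites, 41.9% were themselves at 35 to 65% when the 12 rats were pooled, 12.7% were below 20% and 15.4% above 80%. In 343 members there was at least 1 site below 20% and at least 1 above 80%. No member had all of its sites at 35 to 65%. Only 38 members, called uniform here, had 80% or more of their sites in that range, and 159, called mixed, had 20% or fewer. The remaining 472 lay between. The most uniform by this count was chr1:170049001-170049500, where 92.9% of 14 sites were in the range and the last stood at 17.3%. The smallest spread between sites was in chr3:154572001-154572500, whose 14 sites read 31.9, 49.7, 52.5, 52.5, 53.5, 28.3, 54.5, 54.8, 55.1, 55.7, 55.5, 55.3, 54.7 and 50.2% in order along the bin. All but the first and the sixth of these lay within a few points of each other, the flat pattern that the Peg10 promoter also had. The largest spread was in chr7:94922001-94922500, with sites at 97.7, 0.0, 87.7, 94.5, 95.3, 97.4, 0.3, 95.3, 0.6 and 15.01%. There the bin reached an intermediate level only as the average of sites near either end of the scale.

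Uniform and mixed members also differed in how far the rats lay apart. The SD between the sites of a bin was 13.6 points in the median uniform member and 32.4 in the median mixed member. The range between rats went the other way, 14.6 points in uniform and 6.99 in mixed members, with dispersions of 12.6 and 2.75. Mixed members were deeper, at a median of 117 reads per site against 109. Since the grouping was made on the same reads, these values are a description. The dispersions count each CpG call as independent, so they do not measure variation between rats alone. The plot of the spread within bins against the range between rats shows both groups.

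**Figure D2:**
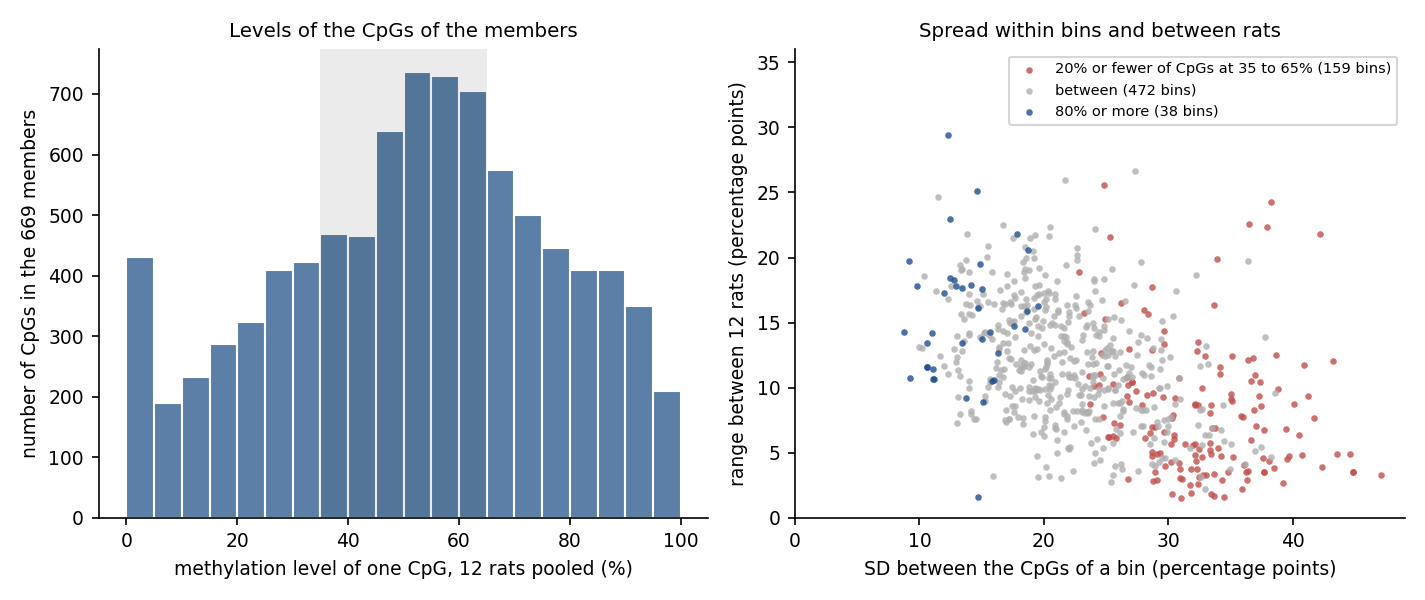
Left, number of CpGs of the 669 members (vertical axis) by the CpG's level in the 12 pooled rats (%, horizontal axis), with 35 to 65% shaded; right, for each member the range between rats (percentage points, vertical) against the SD between its CpGs (percentage points, horizontal), coloured by the share of CpGs at 35 to 65%. The single CpGs cover the whole scale, and the 159 mixed bins (red) sit at high SD and mostly at a low range between rats, while the 38 uniform bins (blue) sit at low SD.

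CpGs at MspI sites read lower than their neighbours. This could be examined only where a RefSeq promoter was found in the tables by the spacing of its CpGs, because no rn5 sequence was used here. Of 13885 promoter windows with 10 or more CpGs, 7994 were found at a single place, 7931 of them (99.2%) on their own chromosome. In all, 12 members overlapped such a window (14 windows). In 12 of these 12 members the mean level of the CpGs within CCGG was below that of the other CpGs, with medians of 27.03 and 55.97%. Crygn (chr4:6915001-6915500) had 14.1, 28.2 and 8.8% at the 3 CCGG sites of the printed stretch, 29.6% at another past it, and from 38.3 to 74.6% at the other CpGs of the window. Slc6a16 (chr1:102302001-102302500) had 57.0, 33.7, 35.6, 6.1 and 19.8% at CCGG, the last of them past the printed stretch, and from 39.1 to 96.9% elsewhere. In Dnah10 (chr12:39196501-39197000) the pattern was weak, with 48.8% at the printed CCGG and 27.3% at another past it, and from 24.9 to 65.3% elsewhere in the window. When the CCGG sites were left out, 8 of the 12 members still met the level rule, and Slc6a16 did not.

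This difference was not particular to the intermediate bins. Over all 373 placed windows whose other CpGs averaged 5% or more, the ratio of CCGG to other CpGs had a median of 52.0% (interquartile range 36.7 to 64.8%), and CCGG sites were lower in 354. Where the other CpGs stood at 90 to 100%, with a median of 94.8%, the CCGG sites had a median of 47.1% and were lower in 35 of 35 windows. Where the other CpGs were at 35 to 65%, with a median of 47.0%, CCGG sites had 20.8% and were lower in 39 of 41. The first table gave 47.3% against 92.3% (11 of 11 windows) and 18.4% against 45.1% (10 of 10). A window whose other CpGs were at 90 to 100% thus carried CCGG sites at an intermediate level in both tables. How much of a member's level comes from such sites was not tested beyond these 12 bins, and what lowers them was not tested. The plot of CCGG against other CpGs shows the windows that overlap a member among all others.

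**Figure D3:**
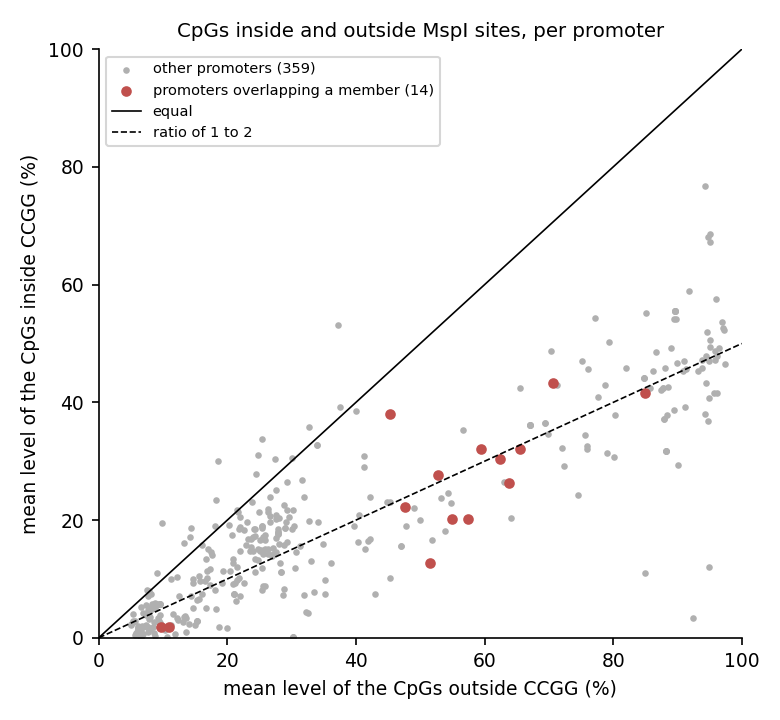
Mean level of the CpGs inside CCGG (%, vertical axis) against that of the other CpGs (%, horizontal axis) in each of 373 placed promoter windows, with the 14 windows that overlap a member in red. The solid line marks equal levels and the dashed line a ratio of 1 to 2; 354 windows lie below the solid line, and most member windows lie near the dashed one.

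The Peg10 promoter shows what a known imprinted region looked like in these libraries. Its bin, shared with the start of Sgce (a sarcoglycan gene imprinted together with Peg10), was chr4:29704001-29704500 and held 11 common sites with a level of 42.1% ± 6.34 (SD, n = 12). It read 47.0, 48.3, 41.9 and 44.6% in PRE_LS, 32.2, 44.4, 40.2 and 47.3% in HS_SCR and 32.4, 52.0, 39.4 and 35.8% in HS_DT. A rat in HS_SCR and a rat in HS_DT fell below 35%, which kept the bin out of the set, and the groups overlapped. Its 9 inner sites all lay between 44.2 and 46.8%, while the 2 at the ends stood at 23.0 and 20.2%. The first of these 2 is the CCGG of the printed sequence. The bin was thus flat along its inner sites. Its SD between rats cannot be set against that of the members, whose spread the rule bounds. It lay above the upper quartile, 5.53 points, of the 681 non-member bins with 10 or more sites and a mean of 35 to 65%.

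None of the other placed promoters of imprinted genes lay in a member, and most of the listed genes could not be examined. From a list of 68 imprinted genes, 39 promoter windows had 10 or more CpGs and 20 were placed. Of these, 18 windows held a common site, and 14 of the 18 were below 10% methylated. Gnas, the imprinted gene of a stimulatory G protein subunit, had a bin at 27.7% ± 6.98 with 9 common sites. Peg3, a paternally expressed zinc finger gene, had a bin at 36.96% ± 4.52 with 6 sites, none of them in its placed window. Ndn, a paternally expressed MAGE family gene, had a bin at 14.3% over 28 sites. All SDs are over 12 rats. Of the clustered protocadherin genes, whose promoters are known for methylation that varies between cells, 4 of 35 windows were placed and 0 lay near a member. Windows that were not placed, and imprinted control regions away from promoters, were not analysed here.

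Neighbouring genes could be named only from promoters placed at a single position, 7994 of 33469 windows. All distances to genes are from the bin to the nearest edge of the promoter window. Beside the 12 members that overlapped a placed promoter, 37 lay within 5000 bp of one (42 genes, with 1 window counted for each). In the 35 of these windows with common sites, the promoter itself had a median level of 0.157%, and 28 were under 10%. The bin nearest to Rpl13 (a ribosomal protein gene), chr19:66623001-66623500, lay 129 bp from a promoter window at 0.0361% and itself averaged 38.9% over 46 sites, of which 30 were below 20%. A member 555 bp from Snai1 (a repressor of epithelial genes), chr3:170426501-170427000, averaged 46.4% beside a promoter at 0.187%. Other members lay 1610 bp from Ccn2 (connective tissue growth factor; promoter at 0.539%) and 4403 bp from Klf15 (a Krüppel-like transcription factor; 0.341%). Another 21 members overlapped a promoter window that was found at more than a single place, and no gene is named for these.

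Intermediate bins rarely lay next to each other. The 669 members formed 657 runs, of which 646 were single bins. The other 11 runs held 23 bins, and 1 run had 3 bins. This longest run, chr7:11913001-11914500, held 41 common sites, 28 of them (68.3%) at 35 to 65%, with bin means of 44.7, 51.8 and 60.1%. Its left neighbour stood at 72.6%, and the next bin with data to the right, 5500 bp away, at 61.2%. Along its first bin the sites read 17.6, 35.5, 40.1, 60.5, 62.8, 61.1, 53.1, 23.7, 35.5, 16.7, 41.7, 41.0, 57.2, 41.8 and 26.1%. The level was higher from bin to bin and swung within each, unlike the flat Peg10 profile.

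The run with the most sites was chr7:140496501-140497500, with 58 sites at a mean of 48.9% (bins at 49.2 and 48.6%), 44 of them at 35 to 65%. At 25 of its sites the methylated and unmethylated counts of all 12 libraries were identical to those of another site, more than 1000 bp away or on another chromosome. The run at chr1:64503501-64504500 had 46 sites at 55.8%, with 15 such sites. Those at chr2:226808001-226809000 (37 sites), chr12:18742001-18743000 (32 sites), chr1:252859501-252860500 (31 sites) and chr2:261799001-261800000 (27 sites) averaged 56.1, 49.9, 61.4 and 56.8%, and the share of their sites at 35 to 65% was 18.9, 71.9, 12.9 and 7.41%. At chr10:55593001-55594000, a run of 25 sites at 42.9% lay 241 bp from the promoter window of Gucy2d, a retinal guanylate cyclase gene. On the flanks of all runs, 332 adjacent bins had data. Their median was 60.04%, with 266 at 20 to 80%, 38 above 80% and 28 below 20%, so most neighbours with data were themselves at a middle level. For 367 runs no adjacent bin had 3 or more common sites, and the edges of most members are therefore unknown.

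The single bins with most sites were large CpG-rich stretches. The largest, chr15:9215001-9215500, had 61 sites at 42.9% ± 3.84 (SD, n = 12), ranging from 36.6 to 48.6% between rats, with 40 sites at 35 to 65%. It had no common site in the first table. It was followed by chr19:66623001-66623500, already described, and by chr15:37660501-37661000 with 44 sites at 51.4%. A bin at chr16:20444501-20445000, 2992 bp from Isyna1 (inositol-3-phosphate synthase), had 35 sites at 44.4%, and chr9:16734001-16734500 had 31 sites at 50.6%.

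A share of the members had the same CpG spacing as other places in the genome. The spacing of 9 consecutive CpGs recurred more than 10000 bp away or on another chromosome for 172 of the 669 (25.7%), against 17.5% of all eligible bins, 11.9% of bins below 20%, 37.8% of other bins at 20 to 80% and 32.3% of bins above 80%. With 8 CpGs the share was 30.2% both in members and in all eligible bins, and with 10 it was 23.0 against 14.1%. The repeats grouped 124 members into 34 families. The largest family had 30 bins on 13 chromosomes, read at a median of 2.60 times the usual depth. A run of 9 CpGs found in 9 of these bins spanned 141 bp. Over the 4 to 9 bins with a common site at each CpG, its median levels were 79.1, 88.7, 14.4, 92.6, 23.3, 93.6, 85.9, 85.7 and 86.1%. Some of these CpGs were alike in all copies (83.1 to 97.8% at the fourth), and others were not (9.19 to 86.4% at the fifth, 3.09 to 93.1% at the eighth). Another family of 5 bins on 4 chromosomes had median levels of 53.2 to 57.1% at all 9 CpGs, a depth of 5.21 times the usual, and first-table means of 52.0 to 52.6%. In 4 of these 5 bins most or all sites had counts identical to those of another site. This family was flat along its CpGs and alike in both tables, and its places were not measured by separate counts.

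Deep bins were more common among members. A depth above 5 times the usual was found in 40 members (5.98%), against 2.36% of eligible bins, where the usual depth is that of the median common site, and sites with counts identical to those of another site made up 6.75% of member sites, against 6.92% of all. Members with a repeated spacing had a range between rats of 6.78 points in the median and those without of 11.7. Whether multi-copy sequence contributes to a member's level was not tested.

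The first table gives the members in 15 other rats, which the rule did not use. It held at least 1 common site for 518 members, 3 or more for 440 and 10 or more for 121, and none for 151. Of the 121, 55 (45.5%) had all 15 rats at 35 to 65%, and 112 (92.6%) had a mean in that range. Among the 12816 other autosomal bins with 10 or more common sites in both tables, 38 (0.297%) had all rats and 154 (1.20%) had their mean in the range. That low share was largely set by the rule, since 21588 of the 28573 eligible bins were below 20% in the second table. Other bins with a second-table mean of 35 to 65% were not set beside the members for this share. These counts cover 121 of the 669 members. With at least 20 reads per site in place of 10, all 15 rats were in the range in 30 of 43 members (69.8%). The SD between the 15 rats had a median of 5.15 points in the 112 members and 4.96 in 162 other bins with such a mean and 10 or more common sites in the first table, whatever their number in the second. The median read depth at common sites was 24 to 66 in the first table and 66 to 98 in the second. The plot of both means shows where members left the range.

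**Figure D4:**
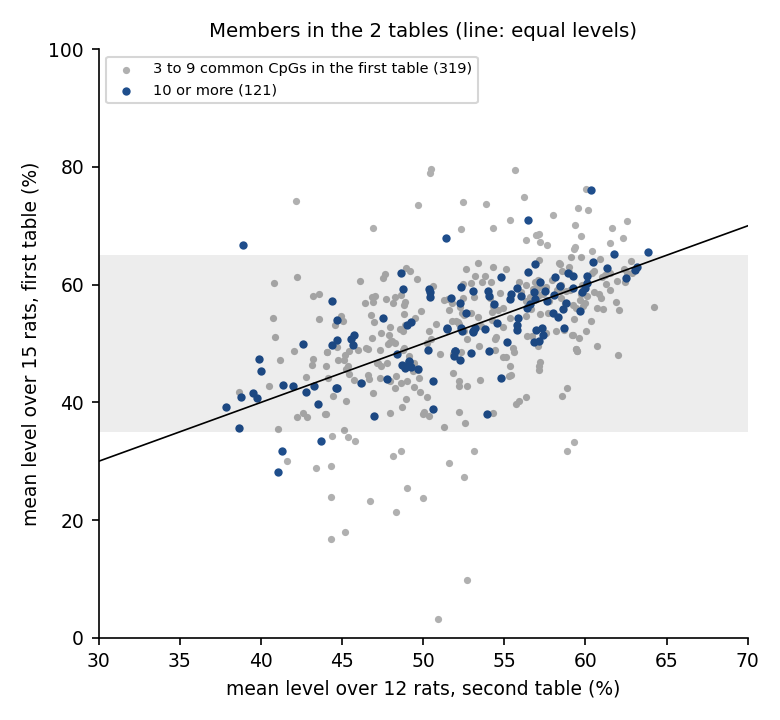
Mean level of each member over the 15 rats of the first table (%, vertical axis) against its mean over the 12 rats of the second (%, horizontal axis), for members with 10 or more (blue) and 3 to 9 (grey) common CpGs in the first table. The line marks equal levels and the shaded band 35 to 65%; 112 of the 121 blue points lie in the band, and grey points scatter more widely around the line.

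Some members were almost constant across the rats of the first table and others were not. Over 5 sites, chr10:57976501-57977000 had an SD of 0.678 points between the 15 rats, at 17.9 times the usual depth. The SD was 0.797 at chr18:68618001-68618500, whose level was 41.0%, at 13.5 times the usual depth. The 3 largest SDs were 19.1 at chr13:91548001-91548500, where 3 sites gave 33.3 to 100%, 15.3 at chr6:145756501-145757000 and 15.2 at chr8:127834501-127835000. Larger bins also moved between tables. The bin near Rpl13 was at 38.9% in the second table and 66.8% in the first, and chr15:37660501-37661000 at 51.4 and 68.0%. Each value rests on the table's own common sites (46 and 27 for the first of these bins), and no test was made between the tables.

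Group differences were tested bin by bin with a quasi-binomial logistic test on the methylated and unmethylated reads, with Benjamini-Hochberg adjustment over all bins tested in a table. An adjusted p below 0.05 was called. In each of the 8 comparisons 0 members were called, and 0% of all bins tested. limma on log ratios of the reads also called 0 in each. The counts at an unadjusted p below 0.05 are given with each comparison. The shares over all bins and over other bins that stand beside them are those of the quasi-binomial test. No such share is given for limma, so its counts of members have no background here and cannot be read as an excess. Some comparisons give only the share over all bins. An excess there cannot be taken as particular to the members, since other bins at a middle level were not set beside them. The values below are differences of group means in percentage points. In the second table the rule itself keeps any difference small, as every rat lies within the same bounds. Comparisons that share a group (PRE_LS, HS_SCR, or any of the groups of the first table) are not independent of each other.

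Scrambled GapmeR with high salt was compared with the state before treatment to see what changed over the treatment without the targeting oligonucleotides. Averaged over the 669 members, HS_SCR stood at 52.4% ± 0.927 and PRE_LS at 52.1% ± 0.401 (SD, n = 4 each), a difference of 0.358 points (SE 0.505), and the groups overlapped. Unadjusted p was below 0.05 in 40 members (5.98%), against 4.77% of all 96299 bins tested, and in 22 members by limma. The groups did not overlap in 19 members (2.84%), against 2.64% of all bins. Both shares are near the background. The smallest p was at chr3:83694501-83695000, a 12-site bin of 540 reads per site that stood at 55.1% ± 0.835 in PRE_LS and 59.8% ± 1.05 in HS_SCR (difference 4.73, SE 0.672, p = 0.000412, adjusted p = 0.9997 by the quasi-binomial test).

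Next came chr4:55458001-55458500, 2853 bp from Gcc1 (a Golgi coiled-coil protein gene) and 4440 bp from Arf5 (a small GTPase of vesicle traffic). It read 44.6, 43.2, 46.5 and 43.5% in PRE_LS and 56.1, 51.3, 54.7 and 49.7% in HS_SCR. The groups did not overlap, and the difference was 8.51 points (SE 1.67, p = 0.000777, adjusted p = 0.9997 by the quasi-binomial test). HS_DT overlapped both, at 51.8, 55.8, 46.3 and 45.1%. The bin near Snai1, singled out after its values were seen, read 45.3, 41.9, 41.4 and 40.4% in PRE_LS and 46.8, 51.7, 51.3 and 47.4% in HS_SCR. These groups did not overlap, the difference being 7.09 points (p = 0.00105, adjusted p = 0.9997 by the quasi-binomial test). Its HS_DT rats, at 51.5, 49.3, 43.0 and 47.4%, overlapped PRE_LS.

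The GapmeRs against Dnmt3a and Tet3 were compared with the scrambled one to ask what the targeting changes under high salt. Over the 669 members HS_DT stood at 52.4% ± 0.253 (SD, n = 4), a difference from HS_SCR of 0.0025 points (SE 0.481). In 45 members (6.73%) the unadjusted p was below 0.05, against 4.41% of all 96356 bins tested, and in 17 members by limma. For this share, other bins at a middle level were not set beside the members. In 13 members (1.94%) the groups did not overlap, against 2.56% of all bins. The smallest p was at chr6:116594501-116595000, at 53.1% ± 2.10 in HS_DT and 60.6% ± 2.49 in HS_SCR. The difference was -7.50 points (SE 1.63), without overlap (p = 0.00107, adjusted p = 0.9998 by the quasi-binomial test). The second was chr12:52330501-52331000, at 46.2% ± 5.37 in HS_DT and 57.4% ± 4.66 in HS_SCR, a difference of -11.2 points (SE 3.55, p = 0.00142, adjusted p = 0.9998 by the quasi-binomial test). There the lowest HS_SCR rat, at 50.4%, overlapped the highest HS_DT rat, at 51.4%.

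Against the state before treatment, HS_DT was 0.360 points higher over the members (SE 0.237), and the groups overlapped. An unadjusted p below 0.05 was found in 77 members (11.5%), against 5.21% of all 96261 bins tested, and 5.91% of other bins with 10 or more sites at 20 to 80%; by limma it was 34 (5.08%). In 35 members (5.23%) the groups did not overlap, against 3.03% of all bins. These members went both ways, 19 of the 35 being higher in HS_DT. The smallest p was at chr3:89571501-89572000. It read 50.1, 49.9, 50.8 and 52.7% in PRE_LS, 55.9, 52.6, 55.1 and 49.7% in HS_SCR and 59.1, 57.6, 56.6 and 57.5% in HS_DT. Every HS_DT rat lay above every other rat at this bin, and the difference from PRE_LS was 6.86 points (SE 0.827, p = 7.96e-05, adjusted p = 0.706 by the quasi-binomial test). The second bin, chr2:205250501-205251000 with 26 sites, had the lower level in HS_DT, 36.8% ± 1.02 against 42.2% ± 2.16 (difference -5.40, SE 1.19, p = 0.000785, adjusted p = 0.813 by the quasi-binomial test).

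The Dnah10 member had lower means in both treated groups of the second table. It read 46.9, 61.2, 48.8 and 52.3% in PRE_LS, 40.4, 46.9, 36.6 and 43.8% in HS_SCR and 39.9, 40.1, 46.8 and 37.9% in HS_DT. Neither treated group overlapped PRE_LS, but the gap was within the rounding of these values. The differences from PRE_LS were -10.4 points for HS_SCR (p = 0.00798, adjusted p = 0.9997 by the quasi-binomial test) and -11.1 for HS_DT (p = 0.00613, adjusted p = 0.847). HS_DT and HS_SCR differed by less than their spread (-0.75 points). In the first table, over 4 sites, the bin stood at 46.9% ± 13.1 in MCW_LS, 55.5% ± 9.29 in MCW_HS, 48.3% ± 11.6 in CRL_LS and 38.2% ± 11.6 in CRL_HS. High salt thus went with a mean difference of 8.55 points in MCW rats (p = 0.298 by the quasi-binomial test). In CRL rats the change of salt and base diet went with -10.1 points (p = 0.0446, adjusted p = 0.825 by the quasi-binomial test). MCW_HS was 17.3 points above CRL_HS with overlap (p = 0.00347, adjusted p = 0.684 by the quasi-binomial test). The Crygn member had 46.0% ± 3.01, 45.9% ± 0.858 and 44.7% ± 1.60 in PRE_LS, HS_SCR and HS_DT. At Slc6a16 the 3 groups stood at 52.7% ± 4.40, 52.8% ± 4.37 and 53.4% ± 6.20.

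In the first table, high salt was compared with low salt within each colony, over the 440 members with 3 or more common sites (439 could be fitted). MCW_HS stood at 53.3% ± 1.05 (n = 4) and MCW_LS at 52.2% ± 0.384 (SD, n = 3), a difference of 1.06 points (SE 0.572), and the groups overlapped. Pooled over reads in place of averaged over bins, the difference was 0.141 points. In 59 members (13.4%) the unadjusted p was below 0.05, against 6.23% of all 28188 bins tested, and in 30 members (6.83%) by limma. The groups did not overlap in 41 members (9.34%), against 6.1% of all bins, and 29 of the 41 were higher in MCW_HS. Among other autosomal bins with 10 or more sites in the first table and a pooled level of 20 to 80%, the share with p below 0.05 was 12.3% and the share without overlap 6.36%.

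The smallest p in MCW rats was in the member 1610 bp from Ccn2, chr1:23332501-23333000, where 9 sites could be used. It read 47.8, 55.2 and 48.7% in MCW_LS and 64.6, 59.6, 63.9 and 62.4% in MCW_HS, without overlap. The difference was 12.1 points (SE 2.58, p = 0.00137, adjusted p = 0.667 by the quasi-binomial test). In CRL rats, where base diet changed with salt, the same bin went from 55.6% ± 3.00 to 61.1% ± 11.2. This difference was 5.53 points with overlap (p = 0.119 by the quasi-binomial test). The differences of the colonies were not told apart (p = 0.444, adjusted p = 0.9988 by the quasi-binomial test of the interaction). In the second table the bin stood at 46.0% ± 1.90, 50.02% ± 4.92 and 48.8% ± 0.969 in PRE_LS, HS_SCR and HS_DT. Ccn2 encodes a matrix-associated growth factor known from kidney fibrosis, and its own promoter was unmethylated in the second table, at 0.539%. The second bin by p, chr1:233153001-233153500, stood at 59.3% ± 4.83 in MCW_LS and 71.1% ± 3.22 in MCW_HS over 7 sites (difference 11.8, SE 3.22, p = 0.00169, adjusted p = 0.667 by the quasi-binomial test).

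In CRL rats the change of salt and base diet went with higher levels over the members. CRL_HS stood at 53.2% ± 0.807 and CRL_LS at 51.2% ± 1.12 (SD, n = 4 each), a difference of 2.04 points (SE 0.689), while all bins with 10 or more sites differed by 0.0834. The highest CRL_LS rat, at 52.5%, still overlapped the lowest CRL_HS rat, at 52.3%. Of the 439 members, 302 were higher in CRL_HS and 137 lower, and 63 (14.4%) had an unadjusted p below 0.05, against 5.92% of all 28039 bins tested and 9.48% of other bins at 20 to 80%; by limma it was 40 members (9.11%). The groups did not overlap in 12 members (2.73%), against 3.07% of all bins. The median difference was 1.63 points in members, 0.37 over all bins tested and 0.65 in other bins at 20 to 80%.

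The smallest p in CRL rats was in the first bin of the longest run, chr7:11913001-11913500. It read 25.6, 33.4, 36.6 and 38.8% in CRL_LS and 51.8, 47.2, 45.3 and 46.4% in CRL_HS. All CRL_LS rats lay below all CRL_HS rats, by 14.0 points in the mean (SE 3.22, p = 0.000557, adjusted p = 0.626 by the quasi-binomial test). MCW rats had 38.5, 42.7 and 51.5% on low salt and 39.6, 41.4, 42.3 and 54.7% on high salt, and differed by 0.24 points. The third bin of the run stood at 72.9% ± 7.06 in CRL_LS and 72.5% ± 3.33 in CRL_HS and did not share the difference. At the first bin the difference between the colonies' changes had p = 0.0241 (adjusted p = 0.887 by the quasi-binomial test of the interaction). The change in CRL rats was of salt and base diet together.

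The second was chr4:66148001-66148500, which overlaps the promoter of the uncharacterised gene LOC102546740 and held 31 sites in the second table. It read 41.1, 44.96, 40.2 and 49.0% in CRL_LS and 56.5, 52.6, 51.9 and 54.2% in CRL_HS, a difference of 10.01 points (SE 2.26, p = 0.000899, adjusted p = 0.626 by the quasi-binomial test). In MCW rats it had 48.9% ± 1.18 on low and 55.03% ± 2.90 on high salt, without overlap (difference 6.10, p = 0.00593, adjusted p = 0.716 by the quasi-binomial test). In the second table its groups lay close together, at 56.8% ± 2.35, 56.8% ± 1.23 and 57.7% ± 1.25 in PRE_LS, HS_SCR and HS_DT.

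The difference in CRL rats was larger in uniform members. These were split off after the data were seen, and no test is given. The 21 uniform members of the first table averaged 44.3% ± 3.09 in CRL_LS (41.1 to 47.5% between rats) and 50.01% ± 2.02 in CRL_HS (48.2 to 51.8%), 5.72 points apart (SE 1.85) and without overlap. They stood at 50.5% ± 3.31 in MCW_LS and 53.0% ± 1.32 in MCW_HS. Without members of repeated spacing or identical counts, 16 uniform members gave 4.45 points (SE 1.76) in CRL rats. The 108 mixed members differed by 0.805 points (SE 0.761). CRL_LS was the sole group on the 5L2F diet. The part of diet, of colony and of the cells sampled in this was not tested.

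Between colonies on low salt, MCW_LS was 1.04 points above CRL_LS over the members (SE 0.601), with overlap. These groups also differed in base diet and in its NaCl content, so colony and diet cannot be told apart here. In 53 members (12.1%) the unadjusted p was below 0.05, against 5.62% of all 27982 bins tested, and in 28 members by limma. The share in other bins at a middle level is not given for this comparison. The values given here therefore do not show whether the excess is particular to the members. The groups did not overlap in 27 members (6.15%), against 5.59% of all bins. The smallest p was at chr19:36100501-36101000. It read 59.95, 58.9 and 61.1% in MCW_LS and 47.4, 50.1, 51.4 and 47.0% in CRL_LS, 11.0 points apart (SE 1.22, p = 0.000246, adjusted p = 0.626 by the quasi-binomial test). On high salt the colonies met there, at 57.0% ± 2.83 in MCW_HS and 56.9% ± 3.54 in CRL_HS. The second was chr1:79933001-79933500, at 58.0% ± 1.23 in MCW_LS and 49.1% ± 4.41 in CRL_LS (difference 8.95, SE 2.32, p = 0.00105, adjusted p = 0.626 by the quasi-binomial test).

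Between colonies on high salt the members differed by 0.0572 points (SE 0.664). In 46 members (10.5%) the unadjusted p was below 0.05, against 5.95% of all 28242 bins tested, and in 33 members by limma. Here too the share in other bins at a middle level is not given, and the excess may not be particular to the members. The groups did not overlap in 19 members (4.33%), against 3.32% of all bins. MCW_HS was lower at chr1:221361501-221362000, with 39.5% ± 3.02 against 51.1% ± 2.55 (difference -11.6, SE 1.97, p = 0.00056, adjusted p = 0.663 by the quasi-binomial test). It was higher at chr4:185367501-185368000, with 51.9% ± 4.25 against 39.0% ± 3.26 (difference 12.96, SE 2.68, p = 0.000728, adjusted p = 0.663 by the quasi-binomial test).

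The high-salt minus low-salt difference was compared between the colonies by a test of the interaction. In CRL rats this difference includes the change of base diet, and the low-salt diets of the colonies also differed in NaCl. The interaction therefore cannot be assigned to salt, diet or colony alone. In 41 members (9.34%) the unadjusted p of the interaction was below 0.05, against 5.34% of all 28130 bins tested, and in 27 members by limma. Other bins at a middle level were not set beside the members for this share, so the excess may not be particular to them. The smallest p was at chr2:89483501-89484000 with 8 sites. It read 50.4, 77.1 and 69.4% in MCW_LS, 50.2, 47.2, 55.6 and 46.6% in MCW_HS, 51.2, 56.9, 54.5 and 47.1% in CRL_LS and 68.9, 60.4, 82.8 and 50.9% in CRL_HS. The mean was lower on high salt in MCW and higher in CRL rats, with 1 rat of MCW_LS and 1 of CRL_HS staying near the other groups. The interaction was -29.1 points (SE 10.8, p = 0.00066, adjusted p = 0.802 by the quasi-binomial test). The second was chr19:36100501-36101000, at -10.9 points (SE 2.58, p = 0.00101, adjusted p = 0.802 by the quasi-binomial test). The boxes of member differences by comparison show all of them.

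**Figure D5:**
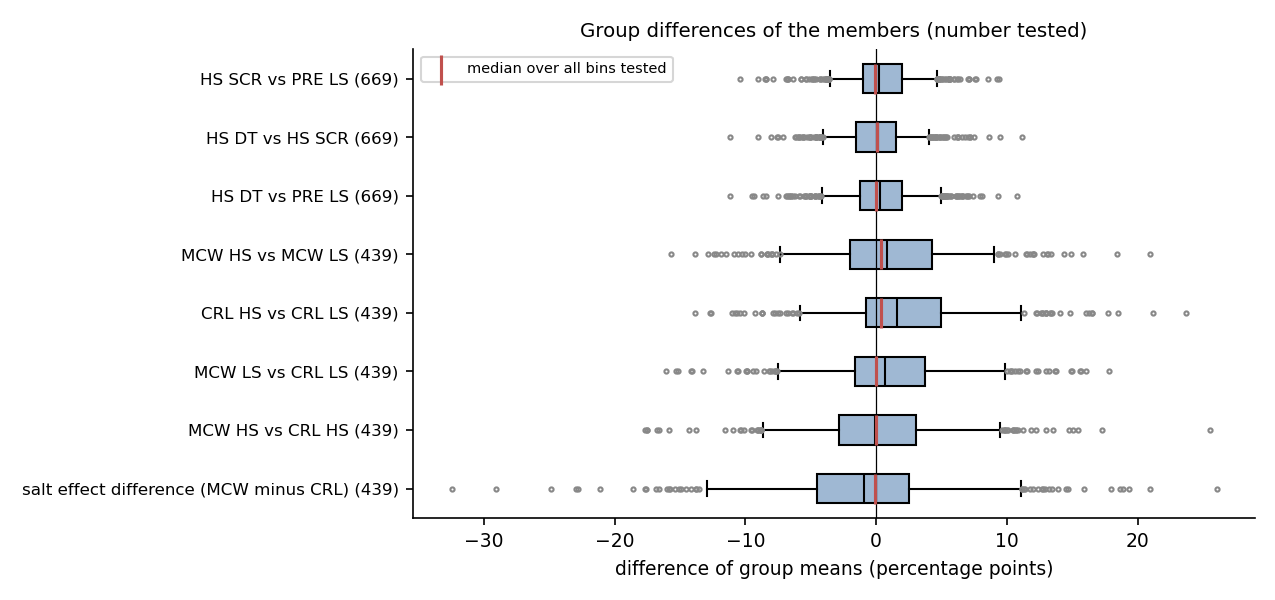
Difference of group means (percentage points, horizontal axis) of the members in each of the 8 comparisons (vertical axis, number tested in parentheses); boxes show quartiles and median, whiskers the 5th and 95th percentiles, points the members beyond, and the red line the median over all bins tested. Medians lie near 0 in the second table, and the CRL_HS against CRL_LS median of 1.63 points lies to the right of the 0.37 of all bins.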

How the data were processed

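Methylation was measured by RRBS in 27 libraries of rat renal outer medulla, each from a single rat. The authors deposited 2 tables with the methylated (C) and unmethylated (T) read count of each cytosine position per library, 2852395 positions in the first and 5477824 in the second. Per the submitters' processing notes the build was rn5 and reads were trimmed with Trim Galore 0.2.5. Which aligner and caller made the counts, and whether reads with several matches were kept, was not given in the sources used here, and this bears on bins of repeated sequence. The total count per library was 35040331 to 95102303 in the first table and 174400859 to 257658964 in the second, and intervals from reads without molecular identifiers would cover counting error only.

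Sites with 10 or more reads in all libraries of a table were kept (484749 and 1219703) and grouped in 500 bp bins. Bins with 3 or more sites and a pooled level of 5 to 95% were tested by a quasi-binomial logistic model per comparison, fitted on the groups compared, with dispersions moderated by limma 3.58.1 in R 4.3.3 and not allowed below 1. The test was tested on simulated data. RefSeq promoter windows (GRCr8, 250 bases before to 50 after the start) were placed in the tables by their CpG spacing, asking for 90% of 10 or more CpGs. Alternatives were limma on log ratios, other coverage, site and level bounds, pooling over reads, a replicate block and leaving out each library. Named bins were the 8 longest runs, the 10 with most sites, the 3 of largest and of smallest SD in the first table, those nearest the bounds and the 2 of smallest p per comparison. The bins near Snai1, Ccn2 and Klf15 and the genes whose starts lie in members were chosen after their values were seen. The members and lists were chosen with earlier results of these data known. Same replicate numbers in the labels do not mark shared animals.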

Additional observations from a re-analysis of the deposited data

Results flagged for a closer look

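In 4 of 51 groups of 4 rats examined at the named bins, a single rat stood apart from the other 3 by Dixon's criterion, and chance alone gives about 1 such group in 20. At the bin near Ccn2, chr1:23332501-23333000, CRL_HS replicate 3 had 44.5% and the others 64.8 to 68.3%. At chr1:79933001-79933500, CRL_HS replicate 2 had 60.9% and the others 48.3 to 50.2%. At chr12:52330501-52331000, HS_SCR replicate 1 had 50.4% and the others 59.4 to 60.2%. At chr2:205250501-205251000, HS_DT replicate 4 had 38.3% and the others 36.1 to 36.4%.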

How the results depend on the processing

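Of 512 recomputed values, 13 moved by more than the spread between replicates or 1.5 times, and no result crossed its threshold. Leaving out bins of repeated spacing, high depth or identical counts, and spacings of 8 or 10 CpGs, were chosen after seeing the data; with 8 CpGs 30.2% of members shared a spacing. The number of members became 1321 with bounds of 30 to 70%, 260 with 40 to 60%, 4634 with 5 or more sites and 54 with 20 or more; with 5 or more sites 80 runs had more than 1 bin. The share of members with all 15 rats of the first table at 35 to 65% was 69.8% with 20 reads per site, 61.6% with bounds of 30 to 70%, 20.4% with 40 to 60% and 33.0% with 3 or more sites there. The share of sites at 35 to 65% was 43.4% with 20 reads per site and 45.5% without bins of repeated spacing, high depth or identical counts. The mean difference between MCW_HS and MCW_LS was 0.141 points when pooled over reads. Leaving out each library in turn gave 676 to 727 members, 44.7 to 49.7% of members in the first table with all rats in the range, a spread there of 4.76 to 5.13 points and 0 to 0 members called in each comparison. Mean differences over members were then 0.000848 to 0.727 (HS_SCR against PRE_LS), -0.367 to 0.359 (HS_DT against HS_SCR), 0.166 to 0.465 (HS_DT against PRE_LS), 0.701 to 1.37 (MCW_HS against MCW_LS), 1.56 to 2.46 (CRL_HS against CRL_LS), 0.555 to 1.46 (MCW_LS against CRL_LS) and -0.305 to 0.369 (MCW_HS against CRL_HS). With the replicate number as a block, 0 members were called in each of the 8 comparisons, with a smallest adjusted p of 0.592. The paired mean difference between CRL_HS and CRL_LS was 2.04 points (SE 0.870). Rats with the same number correlated in their deviations by -0.145 to 0.124, with at most 1 pair over 0.1 in any comparison. These values gave no sign that the numbers pair the rats, but low correlations cannot exclude a pairing. Groups of 3 or 4 rats and, in the first table, depths of 24 to 66 reads limit the precision of single bins.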
